A study of Mus musculus with 6 samples.

Results

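The insulin-like growth factor (IGF) system described here comprised 10 mouse genes, namely the ligands Igf1 and Igf2, the receptor Igf1r and the binding proteins Igfbp1 to Igfbp7. Their probes were taken by name, as those whose gene name in the array design is one of these symbols or an older one, and 19 of the 41174 non-control probes carried such a name. In genes, they were 10 of 27674. Their messenger RNA was measured on 6 one-colour arrays in white adipose tissue (WAT) of the abdomen, from female mice aged 30 wk of the strain labelled C57/BL6. Of these, 3 held RNA from hNAG-1 transgenic mice and 3 RNA from wild-type (WT) mice, each array a pool of 2 mice out of 6 per genotype. hNAG-1 mice carry the human NAG-1 gene, also called GDF15, which encodes a secreted protein of the TGF-β superfamily. By the study's methods the mice came from a single transgenic line in which the transgene is expressed in most tissues and strongly in fat. The promoter of the transgene and the diet of the mice on the arrays were not given in the sources used here. The transgene is human, so no mouse probe on the array checks the genotype labels.

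IGF-1 and IGF-2 are small secreted hormones that act on cells through the IGF-1 receptor, a tyrosine kinase of the same family as the insulin receptor. In plasma and tissue fluid most IGF is held by binding proteins, which lengthen its life and either withhold it from the receptor or deliver it. IGFBP-1 is made largely in liver and is controlled by insulin, while fat depots make IGF-1 and several binding proteins of their own, in adipocytes and in the stromal cells around them.

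Values are given as relative signal, the log2 of an array's processed fluorescence signal minus the 75th percentile of that array, and a fold change is the hNAG-1 mean minus the WT mean on that log2 scale with its standard error (SE). The 75th percentile itself was 957 to 1028 on the WT arrays. It was 897, 739 and 656 on hNAG-1 replicates 1 to 3. Pairs of arrays correlated at 0.965 to 0.988 over genes, each taken by its brightest probe. All 12 adipocyte markers looked for, among them Adipoq, Plin1 and Lep, were well above background on all 6 arrays. Slide 1 held the WT arrays and the array of hNAG-1 replicate 1, and slide 2 held those of hNAG-1 replicates 2 and 3. Both arrays of slide 2 had a lower 75th percentile than any on slide 1. Slide and genotype are thus partly confounded in the comparison of all 6 arrays. A value with slide as a fixed block, or within slide 1, sets hNAG-1 replicate 1 alone against the 3 WT arrays. A shift under either cannot be told apart from a difference between hNAG-1 pools. With slide as a random block all 6 arrays enter the comparison. Of 21064 genes tested with limma, 0 passed an adjusted p of 0.05 (0% of the genes), and 13.3% had an unadjusted p under 0.05.

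Probes are 60 bases long, and 3 are shown because each holds a reading frame of a member that the results return to. The Igf1 probe reads through the part of the hormone that, as in insulin, is pinned by disulfide bonds, and capitals mark its 4 cysteine codons. In the Igfbp4 probe the capitals mark 1 cysteine codon, and in the Igfbp2 probe they mark the stop codon that ends the reading frame. For Igf1 and Igfbp4 the frame is the only one of the probe without a stop codon, and for Igfbp2 it is the one whose first stop codon ends the probe. Coordinates follow the array design, which uses build mm7, and each probe is written 5′ to 3′ as deposited.
Igf1 probe, chr10:87471884-87471943: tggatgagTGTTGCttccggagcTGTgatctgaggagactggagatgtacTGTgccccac
Igfbp4 probe, chr11:99157316-99157375: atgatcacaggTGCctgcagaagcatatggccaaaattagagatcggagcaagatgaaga
Igfbp2 probe, chr1:73093964-73094023: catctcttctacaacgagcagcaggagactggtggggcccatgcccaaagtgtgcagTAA

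No IGF gene passed the adjusted threshold, and the smallest adjusted p among the 10 was 0.239. Of the 10 genes, 7 had negative and 3 positive log2 fold changes, with a median of -0.21, where 38.7% of all genes were negative and the median of all genes was 0.08. Among the 7 binding proteins 5 were negative and 2 positive, with a median of -0.47. At an unadjusted p under 0.05, 1 of the 10 genes was lower (Igfbp4) and none was higher, where 3.62% of all genes were lower and 9.67% higher. With each gene taken by its brightest probe, in Igfbp4 alone the arrays of the genotypes did not overlap. There hNAG-1 lay below WT, as was the case in 5.93% of all genes. By probe, 12 of 19 were negative against 39.8% of all probes, and the 2 that were lower at an unadjusted p under 0.05 (3.61% of all probes) were both of Igfbp4, while none was higher (9.25% of all probes). On 5 of the 19 probes, of Igfbp4 and Igf1r, every hNAG-1 array lay below every WT array, against 6.03% of all probes. The split into 7 negative and 3 positive genes moved with scaling: Igfbp5 turned negative under quantile normalization, at -0.04, and Igfbp7 positive under another background correction (normexp), at 0.12. The share of all genes that were negative moved as well, to 47.5% with quantile normalization and 64.3% with normexp. The contrast between the members and all genes thus depended on the processing. In whole tissue, fewer cells of a type and less RNA per cell cannot be told apart.

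**Figure D1:**
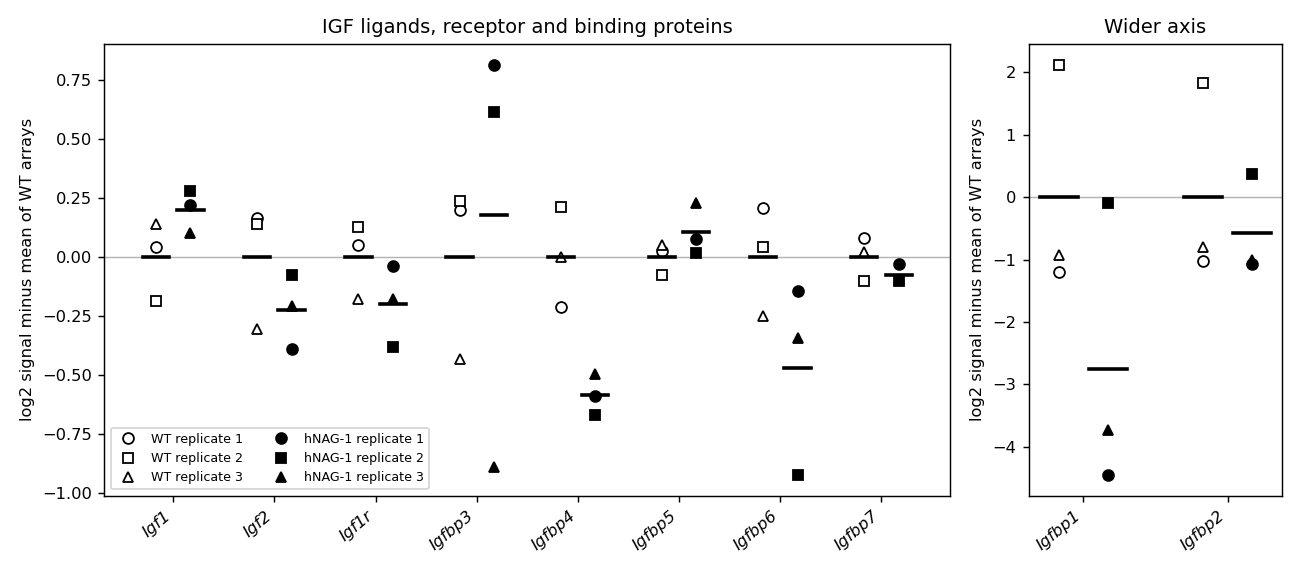
Relative signal (log2) of each gene on each array, set against the mean of the 3 WT arrays, for the brightest probe of the gene. Open symbols are WT, filled symbols hNAG-1, a shape is a replicate and bars are group means. Igfbp4 is the only one of the 10 genes whose filled symbols all lie below its open ones, and Igfbp1 and Igfbp2, drawn on a wider axis, have a high replicate 2 in both genotypes.

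Igf1 encodes the ligand that growth hormone controls, and its mean in hNAG-1 WAT was above that in WT without passing a threshold. The brightest of its 3 probes (chr10:87488982-87489041) read 4.32, 4.10 and 4.42 in WT replicates 1 to 3 and 4.50, 4.56 and 4.38 in hNAG-1 replicates 1 to 3. The groups overlapped, since hNAG-1 replicate 3 lay below WT replicate 3. The fold change was 0.20 (SE 0.13, 95% interval -0.12 to 0.52, limma adjusted p = 0.551). That probe is printed 10 times on each array, and its spots had a coefficient of variation of 1.86% to 3.37%, so that spot noise was small beside the differences between pools. The probe shown above gave 0.23 (SE 0.13). The remaining probe, which lies on a cDNA that the array design calls unclassifiable, gave 0.37 (SE 0.20), so the 3 probes had the same sign. Under quantile normalization the value of the brightest was 0.04, and without the replicate 2 arrays of both genotypes it was 0.07.

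Igf2 encodes the second ligand, whose expression is high before birth. Its brighter probe (chr7:139078075-139078135) read -0.88, -0.90 and -1.35 in WT and -1.43, -1.12 and -1.25 in hNAG-1 replicates 1 to 3. WT replicates 1 and 2 stood above the other 4 arrays, and WT replicate 3 lay among the hNAG-1 values. The fold change was -0.22 (SE 0.17, 95% interval -0.66 to 0.21, limma adjusted p = 0.614), and the other probe gave -0.33 (SE 0.20). Spots of the brighter probe varied by 2.00% to 5.52% within an array.

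Igf1r was measured by 4 probes, of which 2 carry older clone names. The brightest (chr7:64088091-64088150) is one of them and lies on a cDNA that the array design calls unclassifiable. It read -0.21, -0.14 and -0.44 in WT and -0.30, -0.64 and -0.44 in hNAG-1, with a fold change of -0.20 (SE 0.15, 95% interval -0.56 to 0.16, limma adjusted p = 0.589). On this probe the genotypes overlapped, hNAG-1 replicate 1 lying above WT replicate 3. On the other 3 probes every hNAG-1 array lay below every WT array, which held for 6.03% of all probes. The probe on the RefSeq mRNA of Igf1r was among them, with a fold change of -0.43 (SE 0.18). The other clone-named probe gave -0.22 (SE 0.10) and the remaining one -0.17 (SE 0.12), and none had an unadjusted p under 0.05. The 4 probes read 1 gene and are not separate evidence. With slide as a fixed block, which leaves hNAG-1 replicate 1 against WT, the brightest probe gave -0.04 and the others -0.32, -0.23 and -0.16 in the same order.

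Igfbp4, which in most settings restrains IGF action until the protease PAPP-A cleaves it, had the smallest p of the family. Its brighter probe (chr11:99161059-99161118) read 2.40, 2.83 and 2.62 in WT and 2.03, 1.94 and 2.12 in hNAG-1 replicates 1 to 3. The highest hNAG-1 array lay below the lowest WT array, and the 3 hNAG-1 pools were closer to each other (SD 0.09) than the 3 WT pools (SD 0.21). The fold change was -0.58 (SE 0.14, 95% interval -0.94 to -0.23), a signal 1.50-fold lower in hNAG-1. It was at rank 647 of the 21064 genes by p, with an unadjusted p of 0.0074 and a limma adjusted p of 0.239.

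The probe of Igfbp4 shown above, which lies in coding sequence, read 1.39, 1.83 and 1.64 in WT and 1.19, 1.03 and 1.26 in hNAG-1. Its genotypes did not overlap either, and it gave -0.46 (SE 0.15, limma adjusted p over probes = 0.320). The order WT replicate 2, 3, 1 and then hNAG-1 replicate 3, 1, 2 was the same on both probes. Both probes read 1 gene in the same pools and are not separate evidence. The fold change of Igfbp4 stayed negative under all 19 alternative settings, from -0.69 to -0.44. Its unadjusted p was above 0.05 under 3 of them, at 0.080 with normexp (fold change -0.45), 0.077 within slide 1, where hNAG-1 was the single array of replicate 1 (-0.59), and 0.065 without the replicate 2 arrays of both genotypes (-0.44).

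Over the 6 arrays, the genes whose profiles were nearest to Igfbp4 were Kcnu1, Nrp1 and Castor1, with mean absolute differences of 0.047, 0.050 and 0.055 log2 units after each gene was centred on its own mean. Nrp1 encodes neuropilin 1, a co-receptor of vascular growth factors, and had a fold change of -0.59 (SE 0.16). A fold change near that of Igfbp4 follows from picking genes by their profile and is not separate evidence. Fibroblast and matrix markers leaned the same way as Igfbp4: 10 of 12 were negative, with a median of -0.31, and their mean relative to WT was -0.13 to 0.16 on the WT arrays and -0.44 to -0.24 on the hNAG-1 arrays. Summed on the linear scale, as multiples of the 75th percentile, their level was 497 to 573 in WT and 445 to 519 in hNAG-1, and all 12 were well above background on all arrays. The collagen genes Col6a1 (-0.87, SE 0.12), Col1a1 (-0.60, SE 0.19) and Col1a2 (-0.47, SE 0.19) led that list, and none passed the adjusted threshold. Macrophage markers were negative in 7 of 8, with a median of -0.24, led by Itgam (-0.35, SE 0.11), Cd68 (-0.42, SE 0.13) and Cd163 (-0.82, SE 0.29), and their summed level was 115 to 148 in WT and 124 to 128 in hNAG-1. The part of these cell types in the Igfbp4 value was not tested.

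**Figure D2:**
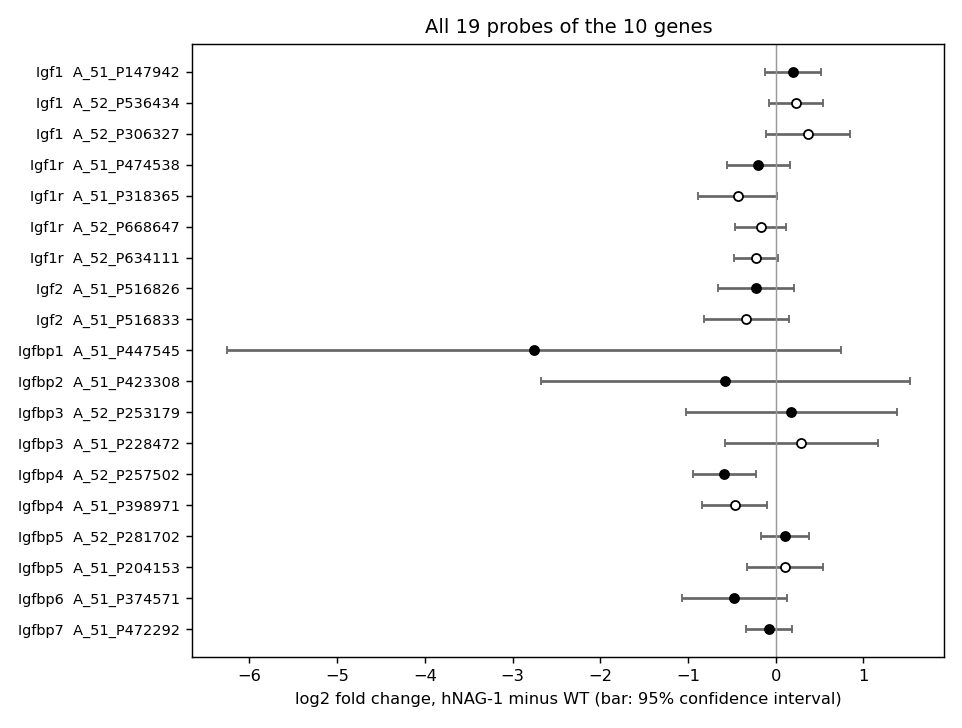
Log2 fold change of each of the 19 probes, hNAG-1 minus WT, with its 95% confidence interval. The filled point is the brightest probe of a gene. Both Igfbp4 intervals lie below 0, all 4 Igf1r estimates are negative, all 3 Igf1 estimates are positive, and the intervals of Igfbp1 and Igfbp2 are the widest.

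Igfbp1, the acutely regulated binding protein of liver and plasma, had the largest fold change of the family and the largest error. Its probe (chr11:7154447-7154506) gave a processed signal of 85.3, 796 and 98.9 in WT replicates 1 to 3 and 7.78, 132 and 9.43 in hNAG-1 replicates 1 to 3. It was well above background on all 3 WT arrays but on 1 of 3 hNAG-1 arrays, replicate 2. As relative signal these are -3.59, -0.27 and -3.32 in WT and -6.85, -2.49 and -6.12 in hNAG-1. The genotypes overlapped, because hNAG-1 replicate 2 lay above WT replicates 1 and 3. The fold change of -2.76 (SE 1.43, 95% interval -6.30 to 0.78, limma adjusted p = 0.466) did not pass the threshold, and its size is uncertain because the probe was not well above background on hNAG-1 replicates 1 and 3. The fold change was negative under all 18 alternative settings that measured the gene, with an unadjusted p under 0.05 in 5 of them and limma adjusted p-values from 0.132 to 0.900.

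The arrays that were high for Igfbp1 were also high for liver markers. Of 7 liver markers looked for, 6 were measured (Serpina1a had no probe under that name), and each of the 6 was highest on WT replicate 2, followed by hNAG-1 replicate 2 and WT replicates 3 and 1, with hNAG-1 replicates 1 and 3 lowest, as was Igfbp1. Their mean relative to the WT mean was -2.19, 2.91 and -0.73 in WT and -5.01, 0.54 and -3.83 in hNAG-1. The albumin gene Alb, for example, read 2.35, 7.17 and 3.68 in WT and 0.40, 5.16 and 0.97 in hNAG-1. All 6 were well above background on the WT arrays and on hNAG-1 replicate 2, with 4 on hNAG-1 replicate 1 and 5 on replicate 3.

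The median fold change of the liver markers was -2.93. Their summed level was 9.52 to 293.5 in WT and 1.81 to 65.5 in hNAG-1, and the 3 genes with the largest test statistic, Fgb (-3.22, SE 2.07), Apoa2 (-3.01, SE 1.96) and Ahsg (-2.85, SE 1.90), did not pass the adjusted threshold. Without the replicate 2 arrays of both genotypes, which were highest for these markers in each genotype, the fitted Igfbp1 value was -3.03, with neither of the remaining hNAG-1 arrays well above background, so that this is not a measured size. The mean difference of the 6 liver markers was -2.97 there and -2.77 with all arrays. The part of liver RNA in the Igfbp1 value was not tested. The size of the Igfbp1 value depended on background correction, being -0.91 with normexp. The value was -4.46 with slide as a fixed block, from hNAG-1 replicate 1 alone, on which the probe was not well above background.

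**Figure D3:**
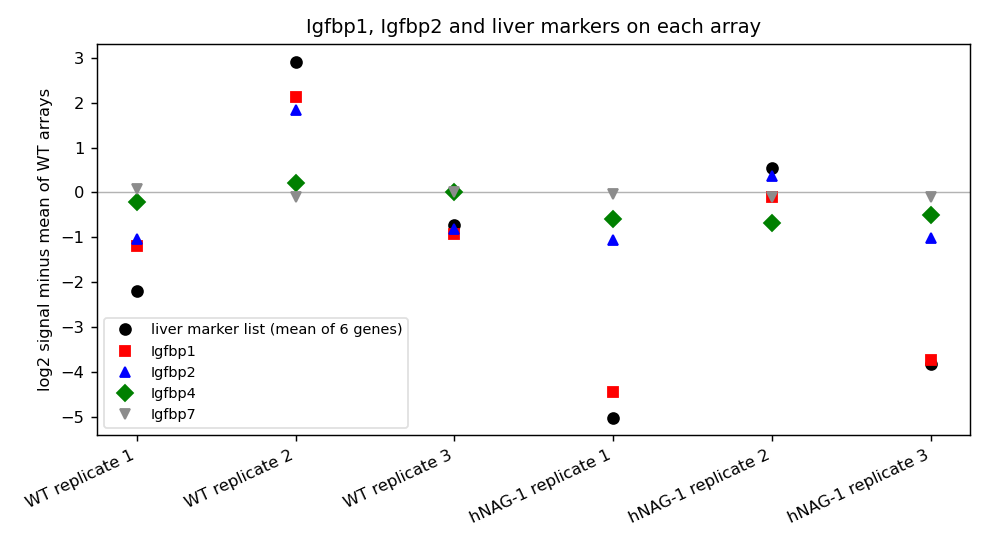
Relative signal (log2) of the liver marker list (mean of 6 genes) and of 4 binding protein genes on each array, set against the mean of the 3 WT arrays. The Igfbp1 squares and the liver circles are both highest on WT replicate 2, then on hNAG-1 replicate 2, and lowest on hNAG-1 replicates 1 and 3, where Igfbp1 was not well above background, the Igfbp2 triangles are high on replicate 2 of both genotypes, and Igfbp4 and Igfbp7 show no such peak on hNAG-1 replicate 2.

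Igfbp2, another binding protein abundant in plasma, read -0.89, 1.97 and -0.67 in WT and -0.93, 0.50 and -0.88 in hNAG-1 (chr1:73093964-73094023). Without WT replicate 2 and hNAG-1 replicate 2 the arrays lay between -0.93 and -0.67. The fold change was -0.57 (SE 0.86, 95% interval -2.71 to 1.56, limma adjusted p = 0.796). It became 0.34 without WT replicate 2 and -0.12 without the replicate 2 arrays of both genotypes, so that its sign and size depended on these arrays. Like the liver markers, Igfbp2 was highest on replicate 2 in each genotype. Of 6 exocrine pancreas markers 5 were measured, and each was highest on WT replicate 2. The mean of the pancreas markers relative to WT was -1.57, 2.86 and -1.29 in WT and -1.87, -0.85 and -1.39 in hNAG-1. Their summed level was 0.98 to 10.6 in WT and 1.38 to 1.62 in hNAG-1, with a median fold change of -1.22, and Cpa1, a pancreatic carboxypeptidase, read -5.54, 2.35 and -3.96 in WT and -6.14, -5.09 and -5.84 in hNAG-1. The mean of the pancreas markers put the arrays in the same order as Igfbp2, with WT replicate 2 first and hNAG-1 replicate 2 next. The part of such RNA in the Igfbp2 value was not tested.

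Igfbp3, the main carrier of IGF in blood, had opposite deviations within hNAG-1. Its brighter probe (chr11:7158599-7158658) read -0.40, -0.36 and -1.03 in WT and 0.21, 0.01 and -1.49 in hNAG-1. hNAG-1 replicates 1 and 2 were the highest of the 6 arrays and replicate 3 the lowest. The fold change of 0.18 (SE 0.49, 95% interval -1.04 to 1.40, limma adjusted p = 0.893) was -0.04 with WT replicate 3 left out, -0.14 with hNAG-1 replicate 1 left out, -0.04 with hNAG-1 replicate 2 left out and 0.72 with hNAG-1 replicate 3 left out. The other probe gave 0.29 (SE 0.35), with hNAG-1 replicate 2 highest and WT replicate 3 lowest.

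Igfbp5, which binds to extracellular matrix, and Igfbp7, a low-affinity relative, varied least over the arrays when each gene was taken by its brightest probe. Igfbp5 read 4.63, 4.53 and 4.66 in WT and 4.68, 4.62 and 4.84 in hNAG-1 (chr1:73100116-73100175), with a fold change of 0.11 (SE 0.11, 95% interval -0.17 to 0.39, limma adjusted p = 0.704). Its other probe also gave 0.11 (SE 0.17), but it ranged from -1.50 to -0.96 over the arrays and was lowest on hNAG-1 replicate 1. Igfbp7 read 6.37, 6.19 and 6.31 in WT and 6.26, 6.19 and 6.20 in hNAG-1 (chr5:77280659-77280718). Its fold change was -0.08 (SE 0.11, 95% interval -0.34 to 0.19, limma adjusted p = 0.781), and hNAG-1 arrays overlapped WT replicate 2. That interval was the narrowest of the 10 genes.

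Igfbp6, which prefers IGF-2 over IGF-1, read 5.83, 5.66 and 5.37 in WT and 5.48, 4.70 and 5.28 in hNAG-1 (chr15:102135489-102135549). hNAG-1 replicate 2 was the lowest array and replicate 1 lay above WT replicate 3. The fold change was -0.47 (SE 0.24, 95% interval -1.07 to 0.13, limma adjusted p = 0.465). It was -0.24 without hNAG-1 replicate 2 and -0.14 with slide as a fixed block, which leaves hNAG-1 replicate 1 alone. Its nearest profiles over the 6 arrays were those of Ints6, Ppp1r12a and Amigo2, at mean absolute differences of 0.075, 0.077 and 0.077 log2 units.

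Igfbp1 and Igfbp3 are adjacent coding genes on chromosome 11. On their brightest probes they were highest on different arrays, WT replicate 2 and hNAG-1 replicate 1. The dimmer Igfbp3 probe was highest on hNAG-1 replicate 2. Igfbp2 and Igfbp5 are adjacent on chromosome 1. On their brightest probes the relative signal spanned 2.90 and 0.31 log2 units over the 6 arrays, with Igfbp5 highest on hNAG-1 replicate 3. The dimmer Igfbp5 probe was highest on hNAG-1 replicate 2.

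**Figure D4:**
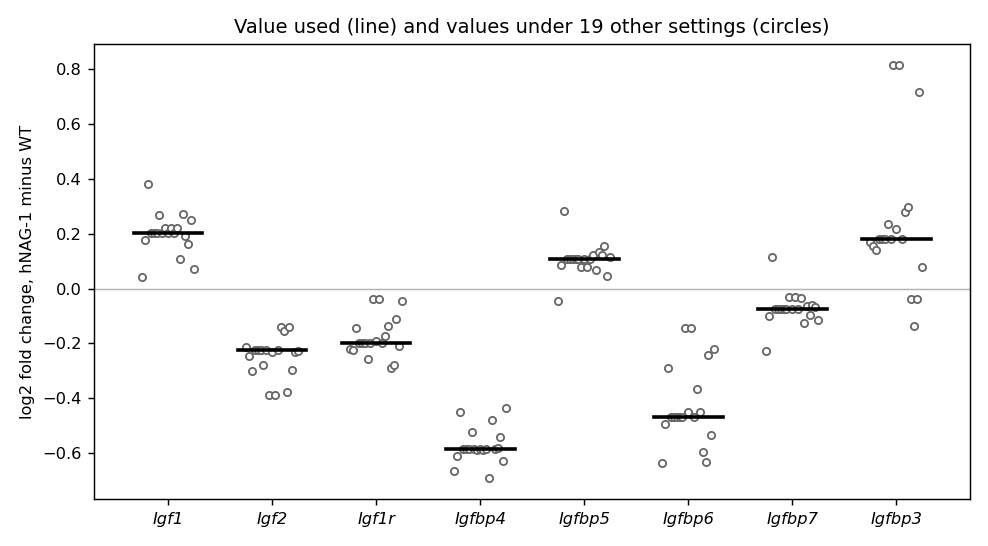
Log2 fold change, hNAG-1 minus WT, of 8 of the genes as reported (line) and under 19 alternative settings (circles), Igfbp1 and Igfbp2 being left out for their wider range. Igfbp4, Igfbp6, Igf2 and Igf1r stay below 0 and Igf1 above 0 under every setting drawn, while Igfbp3, Igfbp5 and Igfbp7 have circles on both sides of 0. The 0 line is not the median of all genes, which was -0.19 with normexp. Relative to that median, Igf2 was at -0.11, Igfbp6 at -0.10 and Igf1r at 0.05 with normexp.

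Other genes of IGF action were drawn from a list of 29, of which 26 were measured. Of these, 12 were positive and 14 negative with a median of -0.01, and 1 was higher and 2 lower at an unadjusted p under 0.05, against 9.67% and 3.62% of all genes. None passed the adjusted threshold, and the smallest adjusted p was 0.165. The 3 genes with the largest test statistic are all CCN family matrix proteins, which share an IGF-binding-protein-like module. Ccn5 read -0.74, -1.44 and -0.67 in WT and 1.16, 0.86 and 0.43 in hNAG-1, a fold change of 1.77 (SE 0.28). Every hNAG-1 array of Ccn5 lay above every WT array.

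Ccn2 lay the other way, at 2.21, 2.04 and 1.33 in WT and 1.02, 0.54 and 0.76 in hNAG-1, a fold change of -1.09 (SE 0.27, limma adjusted p = 0.238) with no overlap. Ccn1 read 1.97, 1.34 and 0.48 in WT and 0.21, -0.70 and 0.61 in hNAG-1, with overlap and a fold change of -1.23 (SE 0.49). Contractile genes of the mural list were also negative, Acta2 at -1.77 (SE 0.66) and Myh11 at -1.64 (SE 0.94), while Cspg4 of that list was at 1.02 (SE 0.12). Acta2 and Myh11 overlapped between genotypes, since WT replicate 3 read 4.53 and 1.04. The hNAG-1 arrays read 3.83 to 4.83 for Acta2 and 1.09 to 2.11 for Myh11. The mural list had 7 of 9 genes negative, a median of -0.25 and summed levels of 71.4 to 381 in WT and 68.9 to 99.8 in hNAG-1, and its part in the CCN values was not tested.

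Among receptors and substrates, Irs1, an adaptor of the insulin and IGF-1 receptors, had a fold change of 0.39 (SE 0.20) and Igf2r, which clears IGF-2, one of 0.14 (SE 0.10). In both, every hNAG-1 array lay above every WT array, as in 15.0% of all genes, and neither had an unadjusted p under 0.05. Insr was at 0.14 (SE 0.17) and Grb10, an adaptor that dampens both receptors, at -0.10 (SE 0.15). The binding-protein protease gene Pappa was at -0.20 (SE 0.22), and Stc1 and Stc2, whose stanniocalcin products inhibit that protease, were at -0.45 (SE 0.38) and -0.25 (SE 0.17). Of the genes that respond to or transmit growth hormone, Ghr was at 0.08 (SE 0.17), Stat5a at 0.29 (SE 0.14) and Stat5b at -0.16 (SE 0.16). Socs2 was at -0.73 (SE 0.53) and Igfals at 0.72 (SE 0.40). None of the genes named in this paragraph had an unadjusted p under 0.05 by limma.

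Adipocyte markers themselves leaned positive in hNAG-1, with 10 of 12 above 0 and a median of 0.25. Retn (0.66, SE 0.19), Fabp4 (0.40, SE 0.15) and Pnpla2 (0.28, SE 0.12) had the largest test statistic of that list. The 2 negative markers were Plin4, at -0.05, and Lep, the leptin gene, whose fold change of -0.80 (SE 0.43) was the largest in size of the 12 and whose hNAG-1 arrays all lay below the WT arrays. The summed level of the 12 was 2038 to 2449 in WT and 2449 to 2972 in hNAG-1. Endothelial markers were negative in 7 of 10, with a median of -0.10 (summed 54.4 to 84.0 in WT and 47.0 to 70.0 in hNAG-1), and mesothelial markers in 7 of 9, with a median of -0.17 (73.7 to 75.4 and 55.1 to 71.7). Skeletal muscle markers were highest on hNAG-1 replicate 2, at a mean of 1.77 relative to WT, and ranged from -1.27 to 1.19 in WT, with a median fold change of 0.25.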

How the data were processed

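The authors deposited, for each of the 6 arrays, the Agilent Feature Extraction 9.5 output (version from the submitters' processing notes) with spot intensity on a linear scale, background-subtracted by that software. The study's methods name an Affymetrix array, but the deposited files are Agilent. A series table of deposited intensity equals the processed signal in all 45018 rows.

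From these, 1639 control spots and 65 to 87 outlier spots per array were left out, spots of a probe averaged, and log2 taken minus the 75th percentile of each array. Probes were named through RefSeq (GRCm38.p6) tables where they matched. The 31456 probes well above background on at least 3 arrays were kept, and a gene is its brightest kept probe. The comparison of genotypes used limma 3.58.1 in R 4.3.3 (lmFit, then eBayes), with two-sided p-values adjusted by Benjamini-Hochberg across the 21064 genes, or across probes, at a threshold of 0.05. The fit was tested on simulated data. Replicates are pools of different mice, so p-values measure the spread between pools, whose number limits the precision.

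The members and lists were chosen with earlier results of these data known. Named genes are all members, up to 3 genes per list by moderated t, and the 3 nearest profiles of the 2 members with the smallest p; other IGF pathway genes were picked by role after their values were seen, and Alb, Plin4 and Lep after theirs. Alternatives covered scaling, background, filter, probe choice, variance model, slide, replicate number and single arrays; leaving out the replicate 2 arrays of both genotypes was chosen after seeing the data. Exon and UTR annotation of probes was not used here.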

Additional observations from a re-analysis of the deposited data

How the results depend on the processing

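No member passed an adjusted p of 0.05 under any of the settings tried, while under a model with trended, robust variances 144 genes higher and 24 lower did over all genes, 1 of the IGF pathway list among those higher. Counts that moved by over 1.5 times are those at an unadjusted p under 0.05, against 2037 genes higher and 763 lower, 1 member gene lower, 2 member probes lower, and 1 pathway gene higher and 2 lower as reported. Over all genes, 1303 were higher with the array median as scaling point, 353 higher and 117 lower with normexp, 904 higher with slide as a fixed block, 614 higher within the slide holding both genotypes, and 792 higher and 505 lower without the replicate 2 arrays of both genotypes. Leaving out 1 array gave 1077 to 2564 higher and 497 to 1171 lower. The median of all genes moved from 0.08 to -0.19 with normexp, and relative to that median Igfbp4 was at -0.26 and Igf1 at 0.57 there.

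Member genes lower numbered 2 with quantile normalization, with the array median and with the replicate block, and 0 with normexp. Leaving out 1 array gave 1 to 2 lower and 0 to 1 higher, the latter Igfbp3 without hNAG-1 replicate 3. Member probes lower numbered 5 with quantile normalization, 0 with normexp and 1 with slide as a fixed block, within the slide and without the replicate 2 arrays, and 1 probe was higher under both slide settings. Leaving out 1 array gave 1 to 4 probes lower and 0 to 2 higher. Pathway genes higher numbered 2 with quantile normalization, the intensity trend and slide as a fixed block. Those lower numbered 1 with normexp, no filter on dim probes, the intensity trend, slide as a fixed or random block, the replicate block and without the replicate 2 arrays. Leaving out 1 array gave 1 to 3 pathway genes higher and 1 to 4 lower.

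Signs reversed in 4 of the 10 members: Igfbp2 to 0.34 without WT replicate 2 (from -1.09 to 0.34 over single arrays left out); Igfbp3 to -0.04, -0.14 and -0.04 without WT replicate 3, hNAG-1 replicate 1 and hNAG-1 replicate 2 (from -0.14 to 0.72); Igfbp5 to -0.044 with quantile normalization; and Igfbp7 to 0.12 with normexp. The dimmer Igfbp3 probe turned to -0.41 with normexp, and the dimmer Igfbp5 probe to -0.13 with normexp and -0.24 with slide as a fixed block or within the slide. The fixed-block and within-slide settings rest on hNAG-1 replicate 1 against WT, as a lone array assumed to vary like the others. The cause of the other reversals was not tested. Igfbp1 was not measured when a probe had to be well above background on all arrays.

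Replicate numbers were not used as pairs in the values reported. Deviations from the group means correlated at 0.097, 0.512 and 0.095 between same-numbered arrays, and the replicate 2 value was the highest of all pairs. WT replicate 1 correlated best with hNAG-1 replicate 3. With 3 arrays per genotype these correlations cannot decide whether the arrays were paired. With the replicate block 1653 genes were higher and 862 lower at an unadjusted p under 0.05, and Igfbp1 had a fold change of -2.76 (SE 0.24, limma adjusted p = 0.132), with 2 hNAG-1 arrays not well above background.

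Signal over background limits Igfbp1, which was dim on 2 arrays, and 3 pools per genotype limit every member: the 95% interval was narrowest for Igfbp7 and reached from -6.30 to 0.78 for Igfbp1.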
